A study of Mus musculus with 24 samples.

Results

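The mitotic genes described here are 36 genes that carry cells from the end of DNA replication through chromosome segregation to cell division, read in whole-blood RNA of irradiated and sham-irradiated mice. They were taken by gene symbol from a list of names, among 24082 gene symbols on the array, and all 36 were present, on 50 probes. The list was chosen with earlier results of these data known. Of the 36 genes, 20 gave enough signal to be tested, that is, 4 or more arrays of some group read the gene's brightest probe as well above background, and 16 did not. The share tested was 55.6%, against 53.7% of all symbols on the array. Each value below is a log2 level relative to the 75th percentile of its own array, so a difference of 1 is a doubling, and levels of different probes are not set against each other.

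Entry into mitosis is driven by cyclin-dependent kinase 1 (CDK1) bound to A- and B-type cyclins. Exit requires the anaphase-promoting complex, a ubiquitin ligase that marks the cyclins for destruction. Between these steps, kinases, kinetochore proteins and motors build the spindle and check the attachment of every chromosome, and a contractile ring then divides the cell. Most of these genes are transcribed only in dividing cells and are held silent in resting cells by the DREAM repressor complex, which binds the cell cycle genes homology region (CHR) of their promoters. The p53 pathway, active after ionising radiation, can strengthen that repression through the CDK inhibitor Cdkn1a. Circulating blood cells are for the most part not dividing, and young red cells (reticulocytes), which have lost their nucleus, still hold RNA made in their dividing precursors in the marrow.

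The animals were male mice of strain 129S/J, either wild type or Parp1-/-, that is, lacking Parp1, a poly(ADP-ribose) polymerase that senses broken DNA. The groups were wild type with mock irradiation (0 Gy, n = 5), wild type after 6 Gy of X-rays (n = 5), wild type after 8.8 Gy (n = 4), knockout with mock irradiation (0 Gy, n = 5) and knockout after 6 Gy (n = 5), with 1 mouse per array. For its genotype, each of 8.8 Gy (wild type) and 6 Gy (knockout) is the dose that kills 50% of animals within 30 days. Blood was drawn from the heart 24 h after exposure, and globin RNA was removed. Which part of Parp1 the knockout allele lacks, and the age of the animals, are not given in the sources used here.

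Several arrays stood apart and are named here before the results. The share of probes well above background ran from 36.5% to 57.5% over the 24 arrays. Parp1 was well above background on all 5 wild-type 0 Gy, 3 of 5 wild-type 6 Gy and 3 of 4 wild-type 8.8 Gy arrays, on none of the 5 knockout 0 Gy arrays, and on 1 array labelled knockout 6 Gy, replicate 1. That array was nearly equal to the one labelled wild-type 8.8 Gy replicate 2: the SD of their log2 difference was 0.167 over 10817 probes, against 0.262 for the next closest of 276 pairs. Parp1 was -3.95, not well above background, on replicate 4 of the arrays labelled wild-type 8.8 Gy. In all, 10 slides and 4 scan days were used. Wild-type 0 Gy arrays were all scanned on day 4 and wild-type irradiated arrays all on day 3. Within wild type, scan day and radiation therefore cannot be told apart. Only the knockout 6 Gy arrays, on days 1, 3 and 4, link these days. Knockout 0 Gy arrays were scanned on days 1 and 2, so the sham groups of the genotypes shared no slide and no scan day.

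The promoters of the members are shown first, since CHR and CCAAT elements in them are the textbook mark of this gene class. RefSeq promoters (build GRCm38.p6, 250 bases before to 50 bases after the annotated start) were present for 32 of the 36 members, 34 promoters in all, and not for Ccna2, Tpx2, Aurkb and Kif20a. The CHR core TTTGAA was searched on both strands and occurred in 27 of these 34 promoters (79.4%), against 17.8% of all 32544 promoters of the same length. The CCAAT box, bound by the factor NF-Y and searched as CCAAT on both strands, occurred in 29 (85.3%), against 37.4%. Both occurred in 25 (73.5%), against 6.92%, and 20 (58.8%), against 11.6%, held at least 2 CCAAT matches. These are matches of letters and not measured binding sites. The promoters of the 4 members with the smallest adjusted p in any radiation response, among those with an entry, are printed 5′ to 3′ on the gene's strand over the 250 bases before the start, with CHR and CCAAT matches of either strand in capitals, so that a match on the opposite strand reads as the reverse complement. They cover Nusap1 at chr2:119618048-119618297 (plus strand), Ube2c at chr2:164769679-164769928 (plus), Ccnb2 at chr9:70421555-70421804 (minus) and Anln at chr9:22389207-22389456 (minus).
Nusap1: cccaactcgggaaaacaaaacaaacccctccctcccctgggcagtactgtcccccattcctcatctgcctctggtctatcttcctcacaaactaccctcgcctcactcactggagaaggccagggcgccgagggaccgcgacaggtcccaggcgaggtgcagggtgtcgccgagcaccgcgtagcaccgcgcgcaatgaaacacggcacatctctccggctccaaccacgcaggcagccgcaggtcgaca
Ube2c: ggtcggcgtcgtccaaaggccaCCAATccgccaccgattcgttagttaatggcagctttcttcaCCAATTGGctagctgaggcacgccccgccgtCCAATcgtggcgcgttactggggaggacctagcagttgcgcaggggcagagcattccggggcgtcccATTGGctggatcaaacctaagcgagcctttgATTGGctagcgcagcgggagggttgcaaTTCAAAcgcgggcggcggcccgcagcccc
Ccnb2: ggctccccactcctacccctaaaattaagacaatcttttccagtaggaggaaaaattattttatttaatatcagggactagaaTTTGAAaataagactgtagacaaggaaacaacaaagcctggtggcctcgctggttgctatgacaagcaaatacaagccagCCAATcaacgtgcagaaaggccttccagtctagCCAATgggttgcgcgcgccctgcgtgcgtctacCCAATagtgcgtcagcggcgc
Anln: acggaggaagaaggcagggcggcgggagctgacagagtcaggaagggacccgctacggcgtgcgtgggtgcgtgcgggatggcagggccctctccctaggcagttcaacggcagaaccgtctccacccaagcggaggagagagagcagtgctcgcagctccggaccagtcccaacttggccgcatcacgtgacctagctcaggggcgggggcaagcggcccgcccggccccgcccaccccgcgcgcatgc
Ube2c, the ubiquitin-conjugating enzyme of the anaphase-promoting complex, had 6 CCAAT matches and 1 CHR match starting at position -29, counted from 1 at the annotated start with no 0. A pair of the CCAAT matches overlapped on opposite strands in CCAATTGG. Ccnb2, a B-type cyclin, had CCAAT matches starting at -87, -54 and -21 and CHR matches at -167 and 5, the last of them after the start and outside the printed bases. Anln, a scaffold of the contractile ring, had its CHR matches only after the start, at 22 and 29, and no CCAAT match. Nusap1, a microtubule-bundling protein of the spindle, had neither motif in the window and gave the largest log2 difference after irradiation in each response. Among promoters of members that fell in a radiation response 3 of 4 held the CHR and 3 of 4 a CCAAT box, among those tested that did not fall 12 of 15 held each, and among those not tested 12 of 15 held the CHR and 14 of 15 a CCAAT box.

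**Figure D1:**
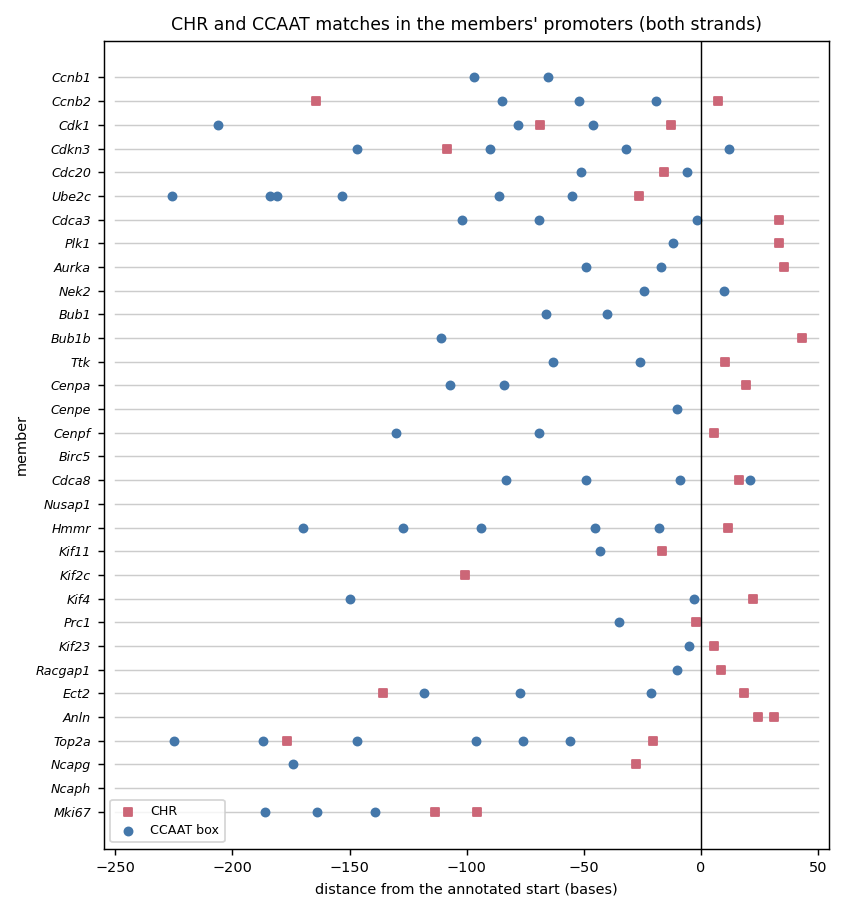
Positions of CHR (squares) and CCAAT box (circles) matches, drawn at the centre of each match, in the promoters of the 32 members with an entry, by distance in bases from the annotated start (vertical line). For Prc1 and Ect2, which have 2 promoters each, the one with the lower start coordinate is drawn. CCAAT matches stand mainly before the start, many CHR matches lie close to it, and Birc5, Nusap1 and Ncaph have neither.

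Detection of the 36 genes was uneven within a role. Well above background on all 24 arrays were 10 members, and on no array were 5: Bub1, Bub1b and Ttk, the kinases and adaptor of the spindle checkpoint, Aurkb, the kinase of the chromosomal passenger complex, and Kif4, a chromosome-bound motor. A further 11 were seen on at least 1 array but were not tested, with at most 7 arrays each: Ccnb1, Cdk1, Aurka, Nek2, Cenpf, Kif11, Kif2c, Kif20a, Ect2, Top2a and Ncapg. Thus the probe standing for Cdk1 was well above background on 1 array while those of its partners Ccna2 and Ccnb2 were on 24. Probes differ in brightness, so this does not show which of these RNAs was more abundant. The 20 members tested therefore leave out the spindle checkpoint kinases altogether. Plk1, Prc1 and Anln passed through 1 group only (wild-type 0 Gy for Plk1 and Prc1, wild-type 8.8 Gy for Anln), so the filter favoured a difference between groups in these 3.

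**Figure D2:**
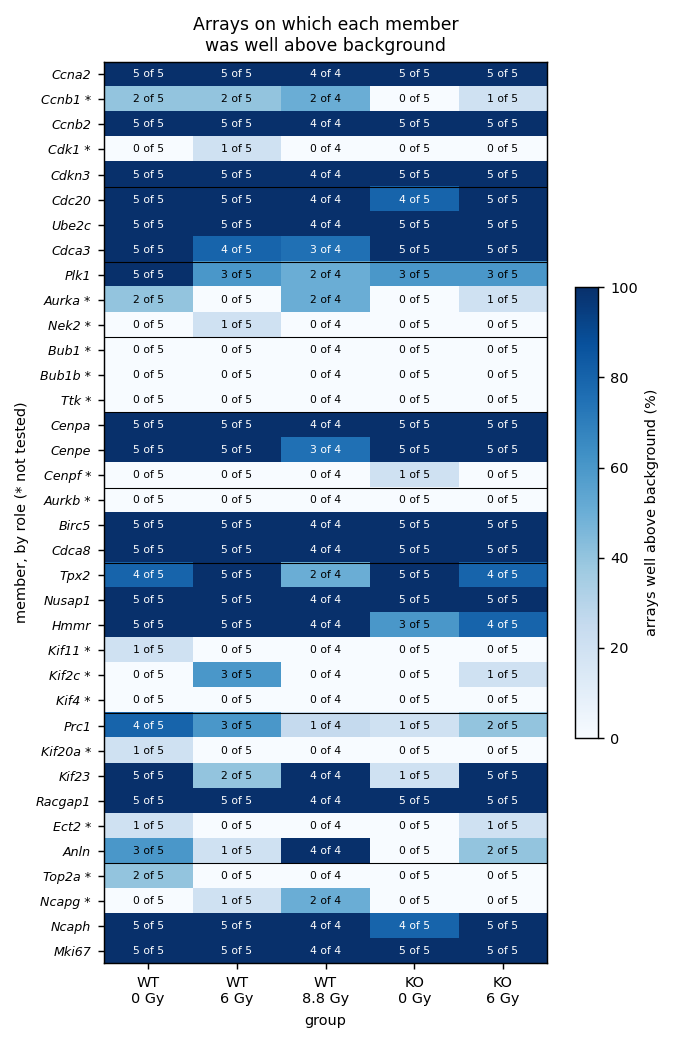
Number of arrays on which each of the 36 members (rows, by role, asterisk for members not tested) was well above background in each group (columns), with the shade giving it as a share of the group. The cyclins Ccna2 and Ccnb2, Ube2c, Birc5, Cdca8, Nusap1, Cenpa, Cdkn3, Racgap1 and Mki67 fill every column, and the spindle checkpoint rows are empty.

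After irradiation a small set of mitotic genes fell and most of the others did not pass the test. In wild type at 6 Gy, 5 of the 20 members tested fell (Nusap1, Ube2c, Ccnb2, Ccna2 and Cdca3) and 0 rose, where 10.9% of all 12939 genes tested fell and 15.5% rose (limma, Benjamini-Hochberg adjusted p under 0.05 over all genes tested). In wild type at 8.8 Gy, 2 fell (Nusap1 and Ube2c) and 1 rose (Anln, which entered the test through this group alone), where 8.93% of all genes tested fell and 7.03% rose. In the knockout at 6 Gy, 6 fell (the 5 named for wild type at 6 Gy, and Tpx2) and 2 rose (Anln and Cdc20), where 10.4% of all genes tested fell and 12.4% rose. In percent of the members tested, the falls were 25%, 10% and 30%. Whether these shares differ from those of all genes was not tested. The median log2 difference of the 20 members was -0.18, -0.19 and -0.19 in the same order, where all genes tested had medians of 0.04, 0.04 and -0.07. Both wild-type responses share the wild-type 0 Gy arrays.

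The groups did not overlap for 5 of the 20 members in wild type at 6 Gy, 1 (Racgap1) in wild type at 8.8 Gy and 7 in the knockout at 6 Gy, where 18.6%, 18.1% and 15.4% of all genes tested did not overlap. Whole blood is a mixture, and fewer cells of a type and less RNA per cell cannot be told apart in these levels. Blocking on the slide or on the scan day left 0 members past the threshold in any of the 3 responses by limma, where over all genes tested the slide block left 0, 0 and 53 called and the day block 15, 23 and 56. Every called difference of a named member kept its sign under both blocks. Few slides or days held both sham and irradiated arrays. Median centring in place of the 75th percentile moved the median of all genes by -0.78 in the wild-type 6 Gy response and by -0.32 at 8.8 Gy, and the members that fell were then 11 and 5, where 42.8% and 15.2% of all genes tested fell. Without both arrays of the near-equal pair, an alternative chosen after seeing the data, the falls were 5, 1 and 5 and the rises 0, 0 and 1. Over all genes tested, 3174, 1130 and 2378 were then called in either direction.

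**Figure D3:**
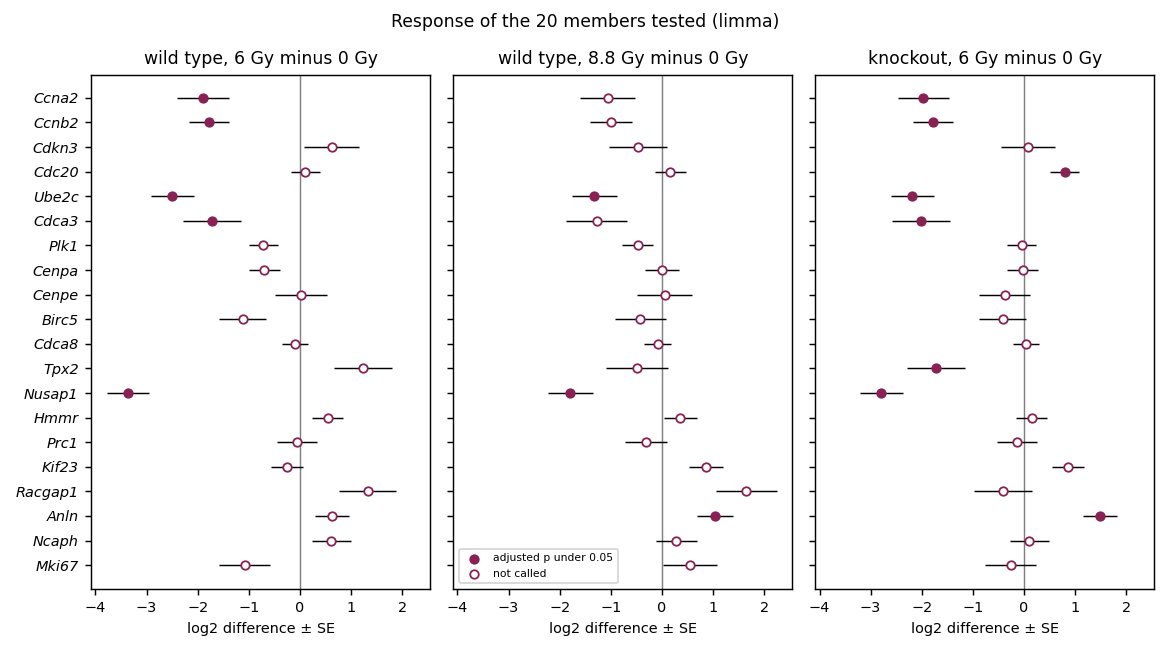
Log2 difference from the sham group of the same genotype (points, with the standard error as bars) for the 20 members tested, in wild type at 6 Gy, wild type at 8.8 Gy and knockout at 6 Gy, with filled points for adjusted p under 0.05 (limma). Nusap1 lies farthest to the left in each panel, at -3.37, -1.80 and -2.79, and Anln lies to the right of 0 in each, with 0 of the 5 knockout sham arrays well above background.

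The cyclin and CDK1 group has 5 members, of which Ccna2, Ccnb2 and Cdkn3 were tested. Ccna2 (cyclin A2, which partners CDK2 in S phase and CDK1 at entry into mitosis) had levels of 1.84, 2.50, 2.44, 2.62 and 2.60 in wild-type 0 Gy replicates 1 to 5, 0.10, 1.32, 0.75, 0.31 and 0.07 in wild-type 6 Gy and 2.95, 2.16, 0.35 and -0.11 in wild-type 8.8 Gy. The 6 Gy arrays all lay below the sham arrays, whereas the 8.8 Gy arrays spanned them, with replicates 1 and 2 high and replicates 3 and 4 low. Knockout arrays gave 2.52, 2.73, 4.86, 3.59 and 3.36 at 0 Gy and 2.23, 2.25, 1.0, 1.16 and 0.60 at 6 Gy, again without overlap. Ccna2 fell in wild type at 6 Gy (log2 difference -1.89 ± 0.50 (SE), 3.71-fold lower, limma adjusted p = 0.0101) and in the knockout at 6 Gy (-1.97 ± 0.50 (SE), 3.91-fold lower, adjusted p = 0.00705). Its difference at 8.8 Gy was -1.06 ± 0.53 (SE) with a limma adjusted p of 0.181, and without wild-type 8.8 Gy replicate 1 it was -1.60 with an adjusted p of 0.0459.

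Ccnb2 (cyclin B2, a partner of CDK1) gave 2.63, 3.74, 3.09, 3.52 and 3.37 in wild-type 0 Gy, 1.61, 2.06, 1.33, 1.55 and 0.90 in wild-type 6 Gy and 3.55, 2.76, 1.57 and 1.21 in wild-type 8.8 Gy arrays. The pattern was that of Ccna2, with 6 Gy arrays below the sham arrays and the 8.8 Gy arrays split by replicate. Knockout levels were 3.44, 3.58, 5.30, 4.28 and 4.03 at 0 Gy and 2.75, 2.68, 2.37, 2.23 and 1.68 at 6 Gy, with no overlap. The falls were 3.44-fold in wild type at 6 Gy (log2 difference -1.78 ± 0.39 (SE), limma adjusted p = 0.00341) and 3.45-fold in the knockout (-1.79 ± 0.39 (SE), adjusted p = 0.00234). At 8.8 Gy the difference was -1.0 ± 0.42 (SE) with a limma adjusted p of 0.105, and -1.42 with 0.0237 without wild-type 8.8 Gy replicate 1. Cdkn3, a phosphatase that removes the activating phosphate of CDKs, was well above background on all arrays and did not pass in any response, with log2 differences of 0.62, -0.47 and 0.08 in wild type at 6 Gy, wild type at 8.8 Gy and the knockout at 6 Gy. Ccnb1, the other B-type cyclin, was well above background on 7 arrays and was not tested.

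Of the 3 members that work with the anaphase-promoting complex or are degraded through it, Ube2c and Cdca3 fell in both 6 Gy responses and Cdc20 fell in none. Ube2c, the E2 enzyme of that complex, had levels of 5.56, 6.61, 6.20, 6.92 and 6.31 in wild-type 0 Gy, 3.86, 4.79, 3.70, 3.55 and 3.23 in wild-type 6 Gy and 6.02, 5.53, 4.11 and 4.34 in wild-type 8.8 Gy arrays. All 6 Gy arrays were below all sham arrays, and only replicate 1 of the 8.8 Gy arrays reached into the sham range. Knockout arrays gave 6.29, 6.51, 8.45, 7.44 and 6.95 at 0 Gy and 5.5, 5.52, 4.30, 4.94 and 4.46 at 6 Gy, with no overlap and with replicate 3 highest at 0 Gy. Ube2c fell 5.63-fold in wild type at 6 Gy (log2 difference -2.49 ± 0.42 (SE), limma adjusted p = 4.84e-04), 2.50-fold at 8.8 Gy (-1.32 ± 0.45 (SE), adjusted p = 0.0470) and 4.54-fold in the knockout (-2.18 ± 0.42 (SE), adjusted p = 8.96e-04). Its further probe gave -2.63, -1.36 and -2.21 in the same order. The fall at 8.8 Gy lost its call in 14 of 24 refits that left out 1 array, namely knockout 0 Gy replicates 4 and 5, knockout 6 Gy replicates 1 and 4, wild-type 0 Gy replicates 2 to 5, wild-type 6 Gy replicates 1, 3 and 4 and wild-type 8.8 Gy replicates 2 to 4, with log2 differences of -1.50 to -1.02 and adjusted p up to 0.143.

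Cdca3, a trigger of mitotic entry whose protein is degraded through the anaphase-promoting complex, gave -0.06, 0.34, -0.02, 0.37 and 0.49 in wild-type 0 Gy, -1.99, -1.14, -0.74, -1.26 and -2.35 in wild-type 6 Gy and 0.94, -0.39, -1.10 and -3.67 in wild-type 8.8 Gy arrays. Replicate 1 at 6 Gy and replicate 4 at 8.8 Gy were not well above background, and the 8.8 Gy arrays were spread more widely than those of any other group. Knockout levels were 0.83, 0.81, 3.22, 1.61 and 1.66 at 0 Gy and -0.52, -0.28, -0.38, -0.25 and -0.54 at 6 Gy. Cdca3 fell in wild type at 6 Gy (log2 difference -1.72 ± 0.56 (SE), 3.30-fold lower, limma adjusted p = 0.0288) and in the knockout (-2.02 ± 0.56 (SE), 4.05-fold lower, adjusted p = 0.0122), and the groups overlapped in neither. The wild-type call at 6 Gy was lost without wild-type 0 Gy replicate 2 (-1.69, adjusted p = 0.0531) or 5 (-1.65, 0.0550) and without wild-type 6 Gy replicate 1 (-1.60, 0.0650) or 5 (-1.51, 0.0589). At 8.8 Gy the difference was -1.28 ± 0.60 (SE), limma adjusted p = 0.149, and -1.94 with 0.0263 without wild-type 8.8 Gy replicate 1.

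Cdc20, the co-activator that directs the anaphase-promoting complex at the metaphase to anaphase transition, did not fall. Its levels were -1.50, -0.82, -0.59, -0.37 and -0.40 in wild-type 0 Gy, -0.22, -0.10, -0.77, -0.99 and -1.06 in wild-type 6 Gy and -0.61, -0.57, -0.53 and -0.57 in wild-type 8.8 Gy arrays. The 8.8 Gy arrays lay close together and inside the sham range, and the wild-type differences of 0.11 and 0.16 did not pass. Knockout arrays gave -1.24, -1.59, -2.23, -1.15 and -1.34 at 0 Gy, with replicate 3 not well above background, and -0.73, -1.01, 0.27, -0.97 and -1.12 at 6 Gy. The knockout groups did not overlap, and Cdc20 rose 1.74-fold (log2 difference 0.80 ± 0.28 (SE), limma adjusted p = 0.0441). That call was lost in 10 of 24 refits without 1 array: knockout 0 Gy replicates 2, 3 and 5, knockout 6 Gy replicates 1, 3 and 4, wild-type 0 Gy replicates 2 and 3, wild-type 6 Gy replicate 3 and wild-type 8.8 Gy replicate 2. The lowest value, 0.55 with an adjusted p of 0.146, was that without knockout 6 Gy replicate 3. With normexp background correction the difference was 0.07, adjusted p = 0.787.

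**Figure D4:**
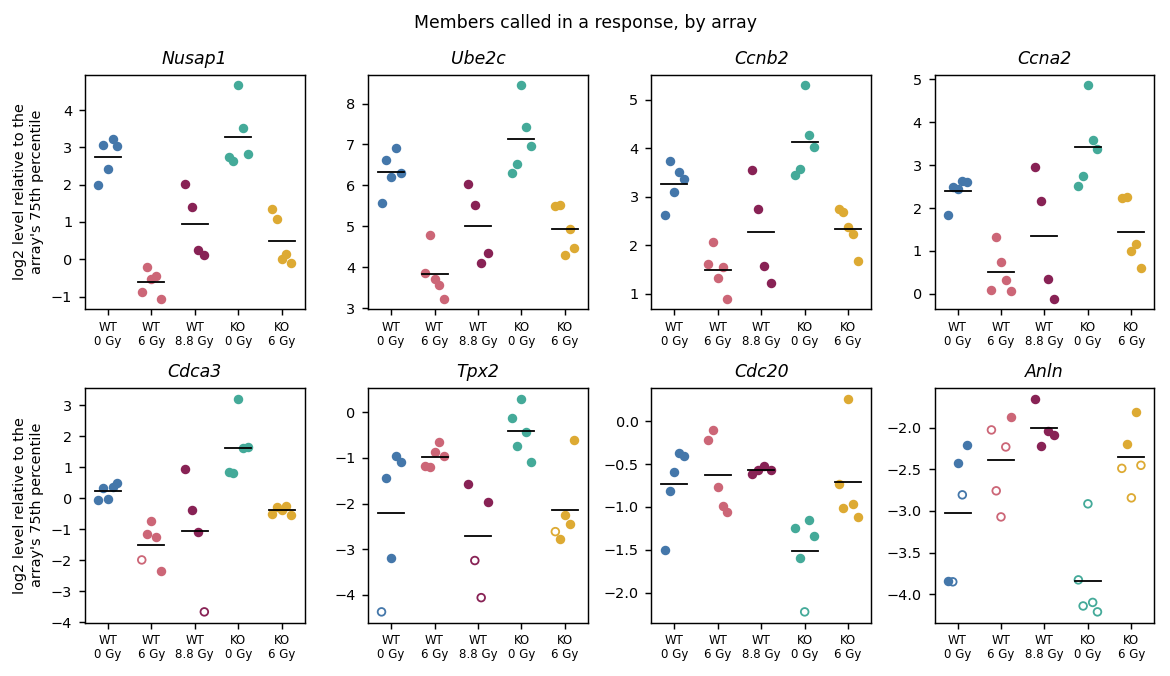
Log2 level relative to the array's 75th percentile for the 8 members that passed in a radiation response, by group, 1 point per array, with the group mean as a line and open points for arrays on which the probe was not well above background. For Nusap1, Ube2c, Ccnb2 and Ccna2 the arrays of both 6 Gy groups lie below those of the sham group of their genotype, and the 8.8 Gy arrays split into a high and a low pair.

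Of the mitotic kinases only Plk1, the polo-like kinase that acts at entry, spindle assembly and cytokinesis, was tested. Its levels were -1.62, -0.77, -0.93, -1.04 and -1.25 in wild-type 0 Gy, -1.63, -1.86, -2.29, -1.31 and -2.08 in wild-type 6 Gy and -1.94, -2.19, -1.15 and -1.11 in wild-type 8.8 Gy arrays. Knockout levels ran from -2.34 to -1.33 at 0 Gy and from -2.29 to -0.89 at 6 Gy, and all groups overlapped. The wild-type 6 Gy difference was -0.71 ± 0.29 (SE), limma adjusted p = 0.0668, and passed without knockout 6 Gy replicate 3 (-0.71, adjusted p = 0.0485) or wild-type 6 Gy replicate 4 (-0.85, 0.0403). Plk1 gave -0.48 in wild type at 8.8 Gy and -0.05 in the knockout, neither past the threshold. Aurka, which ripens the centrosomes, and Nek2, which separates them, were well above background on 5 and 1 arrays and were not tested.

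Centromere and chromosome-passenger genes did not pass in any response. Cenpa, the centromeric histone, differed by -0.70 ± 0.31 (SE) in wild type at 6 Gy (limma adjusted p = 0.0946), -0.0015 at 8.8 Gy and -0.02 in the knockout. Cenpe, the kinetochore motor, gave 0.02, 0.05 and -0.38. Cdca8 (borealin) gave -0.09, -0.08 and 0.04, each within 1 SE of 0, and a dimmer Cdca8 probe, well above background on 6 arrays, gave 1.74, 0.50 and -0.18. Birc5 (survivin), the passenger subunit that is also an inhibitor of apoptosis, had levels of 1.92, 3.45, 2.48, 2.94 and 3.0 in wild-type 0 Gy, 1.63, 2.33, 1.61, 1.78 and 0.83 in wild-type 6 Gy and 3.96, 2.86, 1.25 and 1.27 in wild-type 8.8 Gy arrays. As for the cyclins, replicates 1 and 2 at 8.8 Gy were above replicates 3 and 4. Knockout levels of Birc5 were 2.53, 2.13, 4.40, 3.04 and 2.98 at 0 Gy and 3.07, 2.26, 2.77, 2.84 and 2.05 at 6 Gy, which overlapped. Its differences were -1.12 ± 0.47 (SE) (limma adjusted p = 0.0765), -0.42 and -0.42. The first passed without wild-type 8.8 Gy replicate 1 (-1.12, adjusted p = 0.0431), and the further 2 Birc5 probes gave -1.28 and -0.84 for it.

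Among the spindle genes, Nusap1 gave the largest log2 difference of the 20 members tested in each response. Its levels were 1.98, 3.07, 2.42, 3.22 and 3.03 in wild-type 0 Gy, -0.87, -0.20, -0.52, -0.46 and -1.06 in wild-type 6 Gy and 2.03, 1.41, 0.24 and 0.11 in wild-type 8.8 Gy arrays. Every 6 Gy array was below every 8.8 Gy array, and the highest 8.8 Gy array (replicate 1) just reached the lowest sham array (replicate 1). Knockout arrays gave 2.75, 2.64, 4.67, 3.53 and 2.83 at 0 Gy and 1.36, 1.08, -0.0017, 0.13 and -0.10 at 6 Gy, with no overlap. Nusap1 fell 10.3-fold in wild type at 6 Gy (log2 difference -3.37 ± 0.41 (SE), limma adjusted p = 1.65e-05), 3.47-fold at 8.8 Gy (-1.80 ± 0.44 (SE), adjusted p = 0.00821) and 6.91-fold in the knockout (-2.79 ± 0.41 (SE), adjusted p = 7.83e-05). Each of these calls was kept in every refit that left out 1 array.

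Tpx2, which activates Aurora A and nucleates spindle microtubules, fell in the knockout, and the difference between the genotypes' responses at 6 Gy was called, a call that did not hold with slide, scan day or replicate number as a block. Its levels were -4.37, -1.45, -3.19, -0.96 and -1.09 in wild-type 0 Gy, -1.17, -1.21, -0.88, -0.66 and -0.96 in wild-type 6 Gy and -1.56, -3.25, -4.06 and -1.96 in wild-type 8.8 Gy arrays. The 6 Gy arrays lay close together at the top of the wide range of the sham arrays, of which replicate 1 was not well above background, and at 8.8 Gy replicates 2 and 3 were not. Knockout arrays gave -0.12, -0.74, 0.30, -0.43 and -1.09 at 0 Gy and -2.61, -2.78, -2.24, -2.44 and -0.61 at 6 Gy, where replicate 1 was not well above background and replicate 5 stood above the other 4. Tpx2 fell in the knockout (log2 difference -1.72 ± 0.57 (SE), 3.30-fold lower, limma adjusted p = 0.0320), while the wild-type differences were 1.24 ± 0.57 (SE) at 6 Gy (adjusted p = 0.109) and -0.49 at 8.8 Gy. The knockout response minus the wild-type response at 6 Gy was -2.96 ± 0.81 (SE) with a limma adjusted p of 0.0397, the only member called in either such comparison. A further Tpx2 probe, well above background on 15 arrays, gave 0.05, 0.20 and -0.56 in wild type at 6 Gy, wild type at 8.8 Gy and the knockout.

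The Tpx2 calls were sensitive to single arrays. The knockout fall was lost without any one of knockout 0 Gy replicates 1, 3 and 4 and knockout 6 Gy replicates 1 to 4, with log2 differences of -1.73 to -1.54 and adjusted p up to 0.0805. On scan day 1 alone, where knockout 6 Gy replicate 5 and knockout 0 Gy replicates 1 and 2 were scanned, Tpx2 differed by -0.18, whereas Nusap1, Ube2c, Ccnb2, Ccna2 and Cdca3 differed by -2.79, -1.94, -1.83, -2.03 and -1.36. The difference between the genotypes' responses was lost without any one of 11 arrays (knockout 0 Gy replicates 3 to 5, knockout 6 Gy replicates 2 to 4, wild-type 0 Gy replicates 1 and 3 and wild-type 6 Gy replicates 1 to 3), with values of -3.13 to -2.42 and adjusted p up to 0.0864. It was also lost with normexp (-1.27, adjusted p = 0.0789), with slide as a random block (-2.86, 0.0704) or a fixed one (-3.55, 0.999), with scan day as a fixed block (-1.52) and with the replicate number as a block (-2.96, 0.0611). Hmmr, a spindle-associated protein that also binds hyaluronan, gave 0.54, 0.36 and 0.15 and did not pass in any response.

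Among the genes of cytokinesis, Anln rose in wild type at 8.8 Gy and in the knockout. Its levels were -3.85, -3.85, -2.42, -2.81 and -2.20 in wild-type 0 Gy, -2.02, -2.76, -3.07, -2.23 and -1.87 in wild-type 6 Gy and -1.65, -2.22, -2.04 and -2.08 in wild-type 8.8 Gy arrays. These stand near background: 3, 1 and 4 of these arrays were well above it. In wild type at 8.8 Gy it rose 2.04-fold (log2 difference 1.03 ± 0.35 (SE), limma adjusted p = 0.0493), with the groups overlapping, and it had entered the test only because all 4 arrays of this group were well above background. In the knockout the levels were -3.83, -4.14, -2.91, -4.10 and -4.21 at 0 Gy, none of them well above background, and -2.49, -2.19, -2.84, -1.80 and -2.45 at 6 Gy, 2 of them well above it. The measured group means were -3.84 ± 0.54 (SD) and -2.36 ± 0.39 (SD), the limma adjusted p was 0.00264, and no fold is given because the sham level has only a bound. With normexp background correction the same difference was -0.22, adjusted p = 0.472, so the direction of the knockout change depends on how background is treated. The call at 8.8 Gy was kept in 6 of 24 refits that left out 1 array, namely knockout 0 Gy replicate 3, knockout 6 Gy replicate 3, wild-type 0 Gy replicates 3 and 5 and wild-type 6 Gy replicates 3 and 5, and was lost without any one of the other 18, with differences of 0.82 to 1.10 and adjusted p up to 0.137.

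Kif23, the motor of the centralspindlin complex that organises the midzone, gave -2.01, -1.94, -1.43, -1.52 and -2.04 in wild-type 0 Gy, -1.88, -2.11, -1.43, -1.60 and -3.21 in wild-type 6 Gy and -0.38, -0.71, -1.49 and -1.11 in wild-type 8.8 Gy arrays. At 8.8 Gy, 3 of the 4 arrays were above every other wild-type array. Knockout levels were -2.09, -1.72, -2.39, -1.68 and -2.33 at 0 Gy and -0.92, -0.55, -1.38, -2.04 and -1.02 at 6 Gy, which overlapped. The differences were -0.26 in wild type at 6 Gy, 0.87 ± 0.33 (SE) at 8.8 Gy (limma adjusted p = 0.0774) and 0.86 ± 0.31 (SE) in the knockout (adjusted p = 0.0512), none past the threshold. The knockout difference passed without knockout 6 Gy replicate 4 (1.07, adjusted p = 0.0186), wild-type 6 Gy replicate 3 or 5 or wild-type 8.8 Gy replicate 1 or 3 (0.86 in each). The difference at 8.8 Gy passed without wild-type 6 Gy replicate 5 (0.87, adjusted p = 0.0389) or wild-type 8.8 Gy replicate 3 (1.06, 0.0484).

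Racgap1, the GTPase-activating partner of Kif23 in that complex, gave 2.01, 3.65, 3.33, 3.93 and 2.08 in wild-type 0 Gy, 4.32, 5.82, 4.22, 4.2 and 3.05 in wild-type 6 Gy and 4.55, 5.10, 4.06 and 4.89 in wild-type 8.8 Gy arrays. The 8.8 Gy arrays lay above the sham arrays without overlap. Knockout levels were 2.23, 3.96, 5.59, 4.49 and 4.27 at 0 Gy and 5.02, 3.98, 2.65, 3.03 and 3.8 at 6 Gy. Differences were 1.32 ± 0.56 (SE) in wild type at 6 Gy (limma adjusted p = 0.0832), 1.65 ± 0.60 (SE) at 8.8 Gy (adjusted p = 0.0618) and -0.41 in the knockout, none past the threshold. The value at 6 Gy passed without wild-type 6 Gy replicate 5 (1.64, adjusted p = 0.0361), and that at 8.8 Gy without knockout 0 Gy replicate 1 or 3 (1.65 in each), wild-type 0 Gy replicate 4 (1.88) or wild-type 6 Gy replicate 2 (1.65). Its other probe, whose target overlaps that of the first and which was well above background on all 24 arrays, gave -0.29, -0.85 and -0.89, so both wild-type directions rest on 1 of 2 disagreeing probes. Prc1, which bundles midzone microtubules, gave -0.05, -0.31 and -0.13 and did not pass.

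Of the genes of chromosome structure, Mki67, named after its values were seen, the proliferation marker that coats mitotic chromosomes, had levels of 1.53, 2.71, 2.60, 2.86 and 2.83 in wild-type 0 Gy, 1.47, 1.96, 1.61, 1.46 and 0.65 in wild-type 6 Gy and 4.60, 3.68, 1.62 and 2.31 in wild-type 8.8 Gy arrays. At 8.8 Gy, replicates 1 and 2 were above every sham array. Knockout arrays gave 2.67, 2.65, 5.38, 4.09 and 3.75 at 0 Gy and 3.73, 3.29, 3.15, 3.82 and 3.24 at 6 Gy. The differences were -1.08 ± 0.50 (SE) (limma adjusted p = 0.109), 0.54 and -0.26. A further Mki67 probe gave -0.99, -0.09 and 0.04, so the sign at 8.8 Gy and in the knockout differed between probes. Ncaph, a subunit of condensin, gave 0.62, 0.28 and 0.11 and did not pass. Top2a, which untangles sister chromatids, was well above background on 2 arrays, both wild-type 0 Gy, and was not tested.

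Without radiation, 0 members passed between the genotypes, by limma over all genes tested, where 0.634% of all genes tested were higher and 0.0464% lower in the knockout. The sham groups shared no slide and no scan day, so genotype and batch cannot be told apart in this comparison. At an unadjusted p under 0.05 there were 6 of the 20 members and 20.6% of all genes tested. The largest differences, knockout minus wild type, were Tpx2 at 1.80 ± 0.57 (SE) (limma adjusted p = 0.106), Cdca3 at 1.40 ± 0.56 (SE) (adjusted p = 0.177), the member whose sham groups did not overlap (5.94% of all genes tested did not), and Mki67 at 1.20 ± 0.50 (SE) (adjusted p = 0.187). The median over the 20 members was 0.37, against -0.05 for all genes tested. Knockout 0 Gy replicate 3 was the highest array of its group for all 6 members that fell in a response.

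Between the doses in wild type, 0 members passed, as did 0% of all genes tested (limma), with 6 of the 20 members and 18% of all genes at an unadjusted p under 0.05. The difference, 8.8 Gy minus 6 Gy, was 1.57 ± 0.44 (SE) for Nusap1 (limma adjusted p = 0.125) and -1.73 ± 0.60 (SE) for Tpx2 (adjusted p = 0.167), and these were the 2 of 20 members whose groups did not overlap, where 5.43% of all genes tested did not. Both groups were scanned on the same day. At the equally lethal doses, knockout 6 Gy against wild-type 8.8 Gy, 0 members passed, as did 0% of all genes, 0 members and 2.06% of all genes had an unadjusted p under 0.05, and the groups overlapped for all 20 members, as they did for all but 0.533% of all genes. The largest difference among the members called in a response was 0.66 ± 0.60 (SE) for Cdca3. The near-equal arrays lie 1 in each of these groups. Without both, an alternative chosen after seeing the data, 0 members and 0 of all genes passed (limma), 0 members and 401 genes had an unadjusted p under 0.05, and Cdca3 differed by 0.92 ± 0.70 (SE). These p-values do not show that the groups were alike.

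The response of the knockout minus that of wild type at 6 Gy was called for 1 member, Tpx2, as given above, where 5.19% of all genes tested were lower and 0.935% higher in this comparison. It includes both sham groups, which shared no slide and no scan day. Racgap1 (-1.74 ± 0.80 (SE), limma adjusted p = 0.173) and Kif23 (1.11 ± 0.44 (SE), adjusted p = 0.116) were the others with an unadjusted p under 0.05, so 3 of 20 members against 25.6% of all genes. The further Racgap1 probe gave -0.29 in wild type at 6 Gy, -0.85 at 8.8 Gy and -0.89 in the knockout. The Racgap1 values in this paragraph therefore rest on the brighter of its disagreeing probes. For the 5 members that fell at 6 Gy in both genotypes, the differences of the responses were 0.58 ± 0.59 (SE) for Nusap1, 0.31 ± 0.60 (SE) for Ube2c, -0.0046 ± 0.56 (SE) for Ccnb2, -0.08 ± 0.71 (SE) for Ccna2 and -0.30 ± 0.80 (SE) for Cdca3, with limma adjusted p of 0.561 or more. Against the wild-type response at 8.8 Gy, 0 members passed, as did 0% of all genes, and 1 member (Racgap1, -2.07 ± 0.82 (SE), limma adjusted p = 0.475) had an unadjusted p under 0.05, as did 10.4% of all genes.

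Markers of red-cell precursors and reticulocytes moved with the members that fell. Of 24 erythroid markers, all tested, 13 fell and 3 rose in wild type at 6 Gy (median log2 difference -1.84), 5 fell and 3 rose at 8.8 Gy (-0.91) and 15 fell and 3 rose in the knockout (-1.67). Falls were 54.2%, 20.8% and 62.5%, where 10.9%, 8.93% and 10.4% of all genes tested fell. Rises were 12.5% in each, where 15.5%, 7.03% and 12.4% of all genes tested rose. Epb4.2 (protein 4.2 of the red-cell membrane), not well above background on any irradiated array, was at least 1.70-fold, 2.72-fold and 5.95-fold lower in wild type at 6 Gy, wild type at 8.8 Gy and the knockout (limma adjusted p of 0.00224, 9.25e-04 and 4.79e-05), the bound being set by the lowest signal well above background on each array. Epb4.2 entered the test through sham groups only, so the filter favoured a fall in it. The mean log2 level over the erythroid markers ran from 1.65 to 3.20 on the sham and from 0.83 to 2.04 on the 6 Gy arrays of wild type. It ran from 0.99 to 3.07 on the 8.8 Gy arrays. Knockout arrays had 2.68 to 4.61 without radiation and 1.94 to 2.41 after it.

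Array by array, several libraries were extreme for both sets and others for 1 only. Knockout 0 Gy replicate 3 was the highest of its group for 6 of the 6 members that fell in a response and for 24 of 24 erythroid markers, and it had the lowest 75th percentile signal of all arrays (5.57 on the log2 scale). Wild-type 0 Gy replicate 1 was the lowest for 6 of 6 and 23 of 24, and it had the highest 75th percentile (7.96) and the highest hepatocyte marker level (7.60). Wild-type 8.8 Gy replicate 1 was the highest for 6 of 6 and 23 of 24, and its hepatocyte marker level was -0.58 where replicates 2 to 4 had 5.93, 6.84 and 6.95. The lowest arrays did not coincide in 2 groups. In wild-type 8.8 Gy replicate 4 was lowest for 4 of 6 members and replicate 3 for 15 of 24 markers, and in knockout 0 Gy replicate 1 was lowest for 3 of 6 members and replicate 2 for 14 of 24 markers. Knockout 0 Gy and wild-type 0 Gy differed by a median of 0.77 over the erythroid markers, with 0 called. None of the erythroid markers is a member, and the part of red-cell and liver RNA in the mitotic results was not tested.

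**Figure D5:**
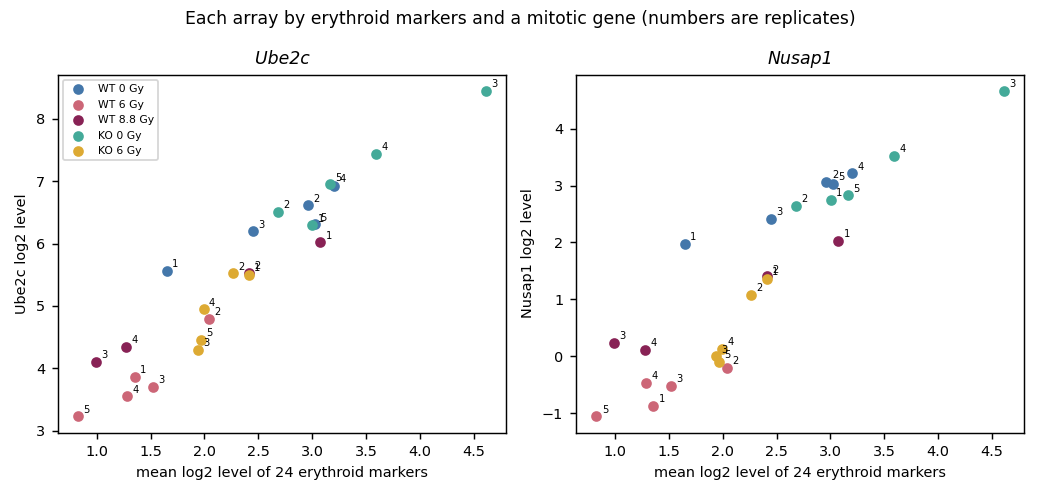
Log2 level of Ube2c and of Nusap1 (vertical axes) against the mean log2 level of 24 erythroid markers (horizontal axis) on each of the 24 arrays, coloured by group and numbered by replicate. Within groups, arrays low in erythroid markers are mostly low in both members. Erythroid levels run from wild-type 6 Gy replicate 5 at 0.83 to knockout 0 Gy replicate 3 at 4.61. Nusap1 is 1.98 on wild-type 0 Gy replicate 1 (erythroid 1.65, hepatocyte marker level 7.60). On wild-type 6 Gy replicate 2 it is -0.20 (erythroid 2.04, hepatocyte marker level 0.39). This is 1 pair of arrays, scanned on different days, and the part of red-cell RNA in the Nusap1 difference was not tested. All points share the scaling of their array to its 75th percentile.

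The blood also holds other cell types, whose markers gave these counts. Of all genes tested, 10.9% fell and 15.5% rose in wild type at 6 Gy. At 8.8 Gy 8.93% fell and 7.03% rose, and in the knockout 10.4% fell and 12.4% rose. B cell markers fell in each response (9, 11 and 10 of 13 tested in wild type at 6 Gy, wild type at 8.8 Gy and the knockout, 0 rising), as did T cell markers (13, 15 and 15 of 18, 0 rising), and both fell at 8.8 Gy by a larger median (-2.39 and -1.56) than at 6 Gy (-1.79 and -1.17), where the erythroid medians were -0.91 and -1.84. Whether the doses differ in this was not tested over the lists. B cell precursor markers fell for 3 of 6 in each response, with 0, 0 and 1 rising. Plasma cell markers fell for 1, 2 and 1 of 5. Neutrophil markers rose for 7, 6 and 5 of 12. Granulocyte precursor markers, whose cells divide in the marrow, rose for 1, 1 and 0 of 11 and fell for 0, 0 and 2. Stem and progenitor markers rose for 0, 2 and 4 of 8 and fell for 1, 2 and 2. Kupffer cell markers rose for 3, 0 and 4 of 7 with 0 falling, heart muscle markers fell for 0, 1 and 1 of 5, and hepatocyte markers had 0 calls of 11, although their mean level ran from -1.39 to 7.60 over arrays of 1 group. The defining B cell marker Cd79a and T cell markers Cd3d and Cd3g were well above background on all 24 arrays and the neutrophil marker Ly6g on 21. Detection was uneven within these lists: the B cell markers Blk and Ebf1 were seen on 0 and 6 arrays. The T cell markers Ubash3a and Cd247 were seen on 9 and 14, and the neutrophil marker Ceacam10 on 16. Liver transcripts were high on some arrays of every group.

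Other mitotic genes were called in both directions, as were all genes tested. Of 64 other mitotic genes 29 were tested: 5 fell and 4 rose in wild type at 6 Gy (median -0.17), 2 fell and 2 rose at 8.8 Gy (-0.39) and 5 fell and 4 rose in the knockout (-0.25). Falls were 17.2%, 6.9% and 17.2% of these genes, where 10.9%, 8.93% and 10.4% of all genes tested fell. Rises were 13.8%, 6.9% and 13.8%, where 15.5%, 7.03% and 12.4% of all genes tested rose. Whether these shares differ was not tested. Cdc25b, the phosphatase that activates CDK1 at entry into mitosis, fell in all 3 responses, with log2 differences of -2.60 ± 0.33 (SE) (limma adjusted p = 2.55e-05), -1.53 ± 0.35 (SE) (adjusted p = 0.00572) and -2.05 ± 0.33 (SE) (adjusted p = 1.94e-04). Cks1b, a CDK-binding subunit, fell in wild type at 6 Gy (-1.78 ± 0.36 (SE), adjusted p = 0.00201) and in the knockout (-1.06 ± 0.36 (SE), adjusted p = 0.0372). Cep55, which directs the final cut between daughter cells, rose in wild type at 6 Gy (1.35 ± 0.25 (SE), adjusted p = 9.49e-04) and at 8.8 Gy (1.56 ± 0.26 (SE), adjusted p = 5.15e-04) and in the knockout (at least 1.45-fold, adjusted p = 0.0173). Cenpw, a centromere protein, fell in the knockout (-1.72 ± 0.39 (SE), adjusted p = 0.00292).

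Of 21 genes of the E2F, DREAM and FOXM1 regulators of these promoters, 20 were tested, and 4 fell and 1 rose in wild type at 6 Gy, 1 and 1 at 8.8 Gy, and 5 and 3 in the knockout. Falls were 20%, 5% and 25%, where 10.9%, 8.93% and 10.4% of all genes tested fell. Rises were 5%, 5% and 15%, where 15.5%, 7.03% and 12.4% of all genes tested rose. The genes named are those with the smallest adjusted p, and those that rose are not among them. Rbbp4, a histone-binding subunit of DREAM, fell in all 3 responses (-1.78 ± 0.31 (SE), -1.58 ± 0.33 (SE) and -2.62 ± 0.31 (SE), limma adjusted p of 6.23e-04, 0.00300 and 8.46e-06). E2f2, an activating E2F factor, fell in wild type at 6 Gy (-2.18 ± 0.44 (SE), adjusted p = 0.00207) and in the knockout (-2.21 ± 0.44 (SE), adjusted p = 0.00125), and at 8.8 Gy gave -1.25 (adjusted p = 0.0717). Tfdp2, the partner of E2F factors, and Rb1, the retinoblastoma protein, fell in the same pair of responses, Tfdp2 with log2 differences of -2.11 ± 0.37 (SE) and -1.68 ± 0.37 (SE) (adjusted p of 5.83e-04 and 0.00223) and Rb1 with -1.87 ± 0.37 (SE) and -1.56 ± 0.37 (SE) (adjusted p of 0.00162 and 0.00404).

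Genes of the preceding phase, DNA replication, mostly fell or did not pass. Of 27 tested G1/S and replication genes, 12 fell and 2 rose in wild type at 6 Gy (median -0.63), 9 fell and 0 rose at 8.8 Gy (-0.47) and 6 fell and 1 rose in the knockout (-0.64). Falls were 44.4%, 33.3% and 22.2%, where 10.9%, 8.93% and 10.4% of all genes tested fell. Rises were 7.41%, 0% and 3.7%, where 15.5%, 7.03% and 12.4% of all genes tested rose. Cdt1, which licenses replication origins, gave -1.44 ± 0.28 (SE), -1.85 ± 0.30 (SE) and -1.23 ± 0.28 (SE) (limma adjusted p of 0.00162, 4.01e-04 and 0.00330). Mcm5, a subunit of the replicative helicase, gave -1.41 ± 0.28 (SE), -1.61 ± 0.30 (SE) and -1.20 ± 0.28 (SE) (adjusted p of 0.00162, 0.00111 and 0.00341). Between the doses, no gene of any kind was called. Tyms, the thymidylate synthase, rose in wild type at 6 Gy (2.33 ± 0.53 (SE), adjusted p = 0.00439) and gave -0.69 in the knockout.

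The p53 arrest genes rose in all 3 responses and fell in none: 9 of 13 tested rose in each, with medians of 1.51, 2.05 and 1.80. This was 69.2% in each, where 15.5%, 7.03% and 12.4% of all genes tested rose. Cdkn1a, the CDK inhibitor, rose by 4.16 ± 0.30 (SE) in wild type at 6 Gy (limma adjusted p = 1.96e-08), 3.89 ± 0.32 (SE) at 8.8 Gy (adjusted p = 6.33e-08) and at least 12-fold in the knockout (adjusted p = 1.93e-08), whose sham arrays were not well above background. Plk2, a polo-like kinase induced by damage, rose by 2.93 ± 0.24 (SE) and 3.19 ± 0.26 (SE) in wild type and at least 1.96-fold in the knockout. Gtse1, a microtubule-binding gene that is both a p53 target and expressed in G2, rose at least 5.48-fold and 8.13-fold in wild type and 3.27-fold in the knockout. It was well above background on 14 arrays, none of them wild-type sham, so the filter favoured a rise of Gtse1 in wild type. The mean log2 level of the p53 arrest genes did not overlap between sham and irradiated arrays, at -0.30 to -0.01 over both sham groups and 1.31 to 2.18 over the 3 irradiated groups. It was 1.31 to 1.66 on wild-type 6 Gy arrays and 1.51 to 2.18 on 8.8 Gy arrays, with the highest value on replicate 1, the 8.8 Gy array on which the cyclins, Ube2c and Nusap1 were highest.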

How the data were processed

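Blood RNA of 24 mice was hybridised to 1-colour Agilent mouse arrays (mm9 probe design), 1 array per mouse. Per the file headers, the authors scanned the arrays and extracted spot intensities with Agilent Feature Extraction 11.5.1, whose processed signal is an intensity after background subtraction. The authors' deposited value table held log2 values that equalled the log2 of that processed signal up to 1 constant per array over the 10189 probes matched, and 14 members were in it. From the intensities, outlier spots and control spots were left out, log2 was taken and each array's 75th percentile was subtracted. Of several probes, the one brightest on average was used for its gene, and probe names were updated through RefSeq accessions where these matched (27454 of 39429 probes, with 5477 more named by the array's gene name).

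Genes read as well above background on 4 or more arrays of a group were tested, 12939 in all. All 24 arrays entered 1 model with a mean for each of the 5 groups, fitted with limma 3.58.1 in R 4.3.3, moderated with eBayes, and p-values (two-sided) were adjusted by Benjamini-Hochberg within each of 8 comparisons. Calls were made at an adjusted p under 0.05. Where a group was not well above background on any array, a fold is a lower bound, from the mean of the bright group against, on each array of the dim group, the higher of the probe's own signal and the lowest signal well above background. The number of arrays limits the precision. The fit was tested on simulated data.

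Values by array are given for the 12 members with the smallest adjusted p in a radiation response, for members called higher, and for members called between genotypes or responses, and up to 4 genes with the smallest adjusted p are named from each other list. Some of these are not reported here. The members and lists were chosen with earlier results of these data known. Same-numbered arrays of different groups did not deviate together (13 of 46 pairs had a correlation over 0.1), so the numbers were not used as pairs. Alternatives were another background correction, centring, quantile normalization, filters, averaged probes, slide, scan day or replicate number as a block, the deposited table, and leaving out each array.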

Additional observations from a re-analysis of the deposited data

Results flagged for a closer look

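Of 60 groups of arrays looked at for the named members, 3 held an array far from the others of its group by Dixon's test, about what chance gives at its 5% level. Ccna2 was 1.84 on wild-type 0 Gy replicate 1, the lowest of its group, where the other arrays lay between 2.44 and 2.62. Tpx2 was -0.61 on knockout 6 Gy replicate 5, the highest of its group, where the others lay between -2.78 and -2.24, and this was the only array of that group scanned on day 1. Cdc20 was 0.27 on knockout 6 Gy replicate 3, where the others lay between -1.12 and -0.73, and that array also had the highest heart muscle marker level of all arrays (4.79).

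The radiation response of Tpx2 at 6 Gy differed between the genotypes, by -2.96 on the log2 scale (knockout minus wild type, limma adjusted p = 0.0397), but the call was lost without any one of 11 of the 24 arrays, with normexp (adjusted p = 0.0789) and with slide, scan day or replicate number as a block. The further Tpx2 probe gave -0.56 in the knockout and 0.05 in wild type.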

How the results depend on the processing

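Nusap1, Ube2c, Ccnb2 and Ccna2 in both 6 Gy responses, Cdca3 and Anln in the knockout, and Nusap1 at 8.8 Gy kept their calls without any 1 array. Without 1 array, the members called lower numbered 4 to 6 in wild type at 6 Gy, 1 to 5 at 8.8 Gy and 5 to 6 in the knockout, those higher 0 to 1, 0 to 2 and 1 to 3, and those called lower in the knockout minus wild-type response at 6 Gy 0 to 1. Over all genes tested, the same refits called 2270 to 3955, 1242 to 2546 and 2337 to 3285 in either direction in the 3 responses. Slide as a fixed block, and scan day as a fixed block, each gave 0 lower and 0 higher in all 3 responses and 0 for the difference between the 6 Gy responses, where over all genes the slide block called 0, 0 and 53 and the day block 15, 23 and 56 in the responses, so these counts say nothing particular of the members. Nusap1 in wild type at 6 Gy was then -3.70 (limma adjusted p = 0.159) and -4.05 (0.0539). The blocks left few links between groups, and whether they remove scan day or response was not tested. Slide as a random block (correlation 0.199) gave 1 lower at 8.8 Gy, 1 higher in the knockout and 0 for the difference between responses. Over all genes it called 1651 at 8.8 Gy and 2579 in the knockout, against 2066 and 2954 without a block.

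Median centring moved the median of all genes by -0.78 in wild type at 6 Gy, -0.32 at 8.8 Gy, 0.46 between the doses and 0.82 in the difference between the 6 Gy responses. It gave 11 lower at 6 Gy (42.8% of all genes), 5 lower (15.2%) and 0 higher (3.86%) at 8.8 Gy, 7 higher at 8.8 Gy than at 6 Gy (12.6%), and 9 higher in the difference between responses (27.1%). Quantile normalization gave 1 lower at 8.8 Gy, 1 higher between the doses and 2 higher in the difference between responses. For the last 2 comparisons the share of all genes is not given here, so these counts say nothing particular of the members. Over all genes it called 1990 at 8.8 Gy (2066 without it). Normexp background correction gave 5 lower (18.6% of all genes) and 4 higher (18.8%) at 8.8 Gy, 0 higher in the knockout (12.1%), 2 higher between the doses (6.32%), 6 lower (21.8%) and 4 higher (22.3%) for knockout 6 Gy against wild-type 8.8 Gy, 0 lower in the difference between 6 Gy responses (0%) and 7 lower in that against 8.8 Gy (26.5%). Over all genes it called 4830 at 8.8 Gy (2066 without it) and 1455 at 6 Gy (3416). It reversed Plk1 at 8.8 Gy (0.46, adjusted p = 0.0468) and Anln in the knockout (-0.22, adjusted p = 0.472), and the cause was not tested.

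Without the filter on dim probes, which tests all 36 members, 4 were higher at 6 Gy (23.2% of all genes), 1 lower and 0 higher at 8.8 Gy (3.05% and 2.68%), 1 higher in the knockout (5.19%) and 9 lower in the difference between 6 Gy responses (29.5%). With only genes seen on all 24 arrays, 10 members were tested, with 0 higher in the knockout and 0 in the difference between responses. Of 7531 genes tested there, 2262 were called in the knockout. Averaged probes gave 1 higher at 6 Gy and 0 higher at 8.8 Gy, and the values as deposited gave 0 higher in the knockout. Over all genes, averaged probes called 3620 at 6 Gy and 1894 at 8.8 Gy. The deposited values called 2106 of 6986 genes in the knockout. Without both near-equal arrays, chosen after seeing the data, 1 was lower and 0 higher at 8.8 Gy and 1 higher in the knockout. Over all genes, 1130 were then called at 8.8 Gy and 2378 in the knockout.

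With the replicate number as a block, 1 member was lower and 0 higher at 8.8 Gy, 1 was higher in the knockout and 0 differed between responses. Over all genes it called 1522 at 8.8 Gy and 2620 in the knockout. Ube2c at 8.8 Gy gave -1.40 (adjusted p = 0.0615), Anln at 8.8 Gy 1.08 (0.0637) and Cdc20 in the knockout 0.80 (0.0770) under this block. Of the 288 medians over the members under alternatives, 10 moved by over 1 SD between arrays.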
